A study of Mus musculus with 6 samples.

Results

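RNA of 7 genes of the red blood cell lineage was followed in carotid body and adrenal medulla of adult mice: the embryonic globin genes Hbb-y, Hbb-bh1 and Hba-x, the adult beta globin gene Hbb-b2, and Alas2, Slc4a1 and Epb42, which serve haem synthesis and the red cell membrane. They are 7 of 18193 genes that the arrays name, and all probe sets whose annotation gives 1 of them alone were taken, 15 of 45037. The genes were picked with their values on these arrays in view, above all the levels on the third carotid body array, so the levels of that array are a description with no test. Carotid body senses blood oxygen beside the carotid artery, and adrenal medulla is the catecholamine-secreting core of the adrenal gland. There were 3 arrays of each tissue, from untreated adult C57/BL6 mice, and each array carried a pool of 18 carotid bodies or 10 adrenal medullas taken from 10 mice. Array numbers 1, 2 and 3 mark cohorts of animals according to the series' description. Xist, the RNA of the inactive X chromosome of females, lay at 8.84 to 10.96 on carotid body arrays, against 4.45 to 5.60 on adrenal medulla arrays, so same-numbered pools differed in it, and whether they held the same mice was not tested. Xist separated the tissues fully, so a tissue difference here cannot be told apart from a difference in the sex make-up of the pools. Results with the cohort as a block rest on the stated numbering.

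Haemoglobin is a tetramer of alpha-like and beta-like globin chains, each holding a haem group that binds oxygen. In the mouse embryo the first red cells, made in the yolk sac, use the beta-like chains of Hbb-y and Hbb-bh1 and the alpha-like zeta chain of Hba-x; red cells made later, in fetal liver and adult bone marrow, use adult alpha and beta chains. Young red cells in adult blood still hold globin RNA. In a pooled organ, fewer cells of a type and less RNA per cell cannot be told apart.

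Values are log2 intensities, 1 per probe set and array, as the authors deposited them; a difference of 1 is 2-fold. The lower quartile of each array's probe sets lay between 3.89 and 4.03 and the upper quartile between 7.60 and 7.86, and since no detection calls came with the values, a level near the lower quartile cannot be told from no RNA. In the probe set names, the ending _x_at marks sets in which some probes may also match other sequences. Precision is limited by how few arrays there are. The tissue labels were borne by their markers: the carotid body receptor Olfr78 lay at 11.18 to 11.90 on carotid body arrays, against 4.96 to 5.89 on adrenal medulla arrays. Carotid body array 1 stood apart in genes of the adrenal cortex, with Star, the cholesterol carrier of steroid synthesis, at 12.06, against 3.81 and 3.85 in the other carotid body arrays and 13.52 to 13.95 in adrenal medulla. Of 5 glomus cell genes Cox4i2 was also called higher in carotid body, while Th, Chga and Kcnk3, which chromaffin cells express too, were lower; all 4 chromaffin genes (Pnmt, Dbh, Chgb, Slc18a1) were lower. Dbh was 7.86 in carotid body array 3, against 10.20 and 10.23 in arrays 1 and 2. Arrays correlated at 0.978 to 0.984 within carotid body and at 0.991 to 0.995 within adrenal medulla. The 3' minus 5' difference of the Gapdh control, which grows with RNA degradation, was 0.59 in carotid body array 3, against 1.45 and 1.04 in arrays 1 and 2, and 0.13 to 0.61 in adrenal medulla.

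The embryonic globin genes were high on carotid body array 3. All 7 of their probe sets were at least 2-fold higher there than on both other carotid body arrays, by 3.28 to 7.04 (log2) over the mean of those arrays, or 9.71-fold to 132-fold. Over all 45037 probe sets, 282 (0.626%) were that much higher on array 3, and 247 (0.548%) that much lower, where 0 member probe sets lay; the median difference was -0.01. As the genes were chosen on these arrays, nothing is read from that contrast. The labels give every pool as adult, and which cells or animals this embryonic globin RNA came from was not tested.

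Hbb-y, the embryonic epsilon-like beta chain, gave the widest range. Its probe set 1436717_x_at was 13.86 in carotid body array 3, against 9.19 and 4.88 in arrays 1 and 2, and was 3.63, 3.55 and 8.64 in adrenal medulla arrays 1, 2 and 3. Probe set 1436823_x_at was 13.81 in carotid body array 3, against 9.02 and 4.61 in arrays 1 and 2, and 3.33, 3.27 and 8.46 in adrenal medulla. Both sets thus had their highest value on carotid body array 3, intermediate values on carotid body array 1 and adrenal medulla array 3, and low values on the other 3 arrays. The third set, 1450621_a_at, was 11.90 in carotid body array 3, against 5.27 and 4.44 in arrays 1 and 2, and 4.29, 4.27 and 4.96 in adrenal medulla. It shared the high value of carotid body array 3, but on carotid body array 1 and adrenal medulla array 3 it was only 0.82 above carotid body array 2 and 0.68 above the mean of adrenal medulla arrays 1 and 2, where 1436717_x_at was 4.32 and 5.05 higher. At least 2-fold higher in adrenal medulla array 3 than in both other adrenal medulla arrays were 2 member probe sets, both of Hbb-y, against 15 (0.0333%) of all probe sets. Carotid body array 1 was at least 2-fold above array 2 for the same pair, against 603 (1.34%) of all probe sets. The 3 probe sets held the ranks 1 to 3 of all probe sets for the difference of carotid body array 3 from the other carotid body arrays.

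Hbb-bh1, the other embryonic beta-like chain and the neighbour of Hbb-y in the beta globin cluster of chromosome 7, was raised on 1 array alone. Probe set 1437810_a_at was 8.78 in carotid body array 3, against 4.49 and 4.58 in arrays 1 and 2, and 4.08, 4.07 and 4.70 in adrenal medulla arrays 1, 2 and 3. Set 1437990_x_at was 8.81 in carotid body array 3, against 3.93 and 4.01 in arrays 1 and 2, and 3.63, 3.93 and 3.95 in adrenal medulla. Set 1450736_a_at was 7.36 in carotid body array 3, against 3.98 and 3.82 in arrays 1 and 2, and 3.99, 4.01 and 4.24 in adrenal medulla. On the other 5 arrays, carotid body array 1 among them, all 3 probe sets lay at 3.63 to 4.70, below each array's median of 5.16 to 5.32. Hba-x, the zeta chain gene at the front of the alpha globin cluster of chromosome 11, followed the same pattern. Its only probe set, 1448716_at, was 8.02 in carotid body array 3, against 4.99 and 4.49 in arrays 1 and 2, and 4.99, 4.46 and 4.58 in adrenal medulla. Genes of both globin clusters were therefore high together on carotid body array 3, while among these 7 probe sets only the _x_at sets of Hbb-y were at least 2-fold up on carotid body array 1 over array 2 and on adrenal medulla array 3 over both others.

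**Figure D1:**
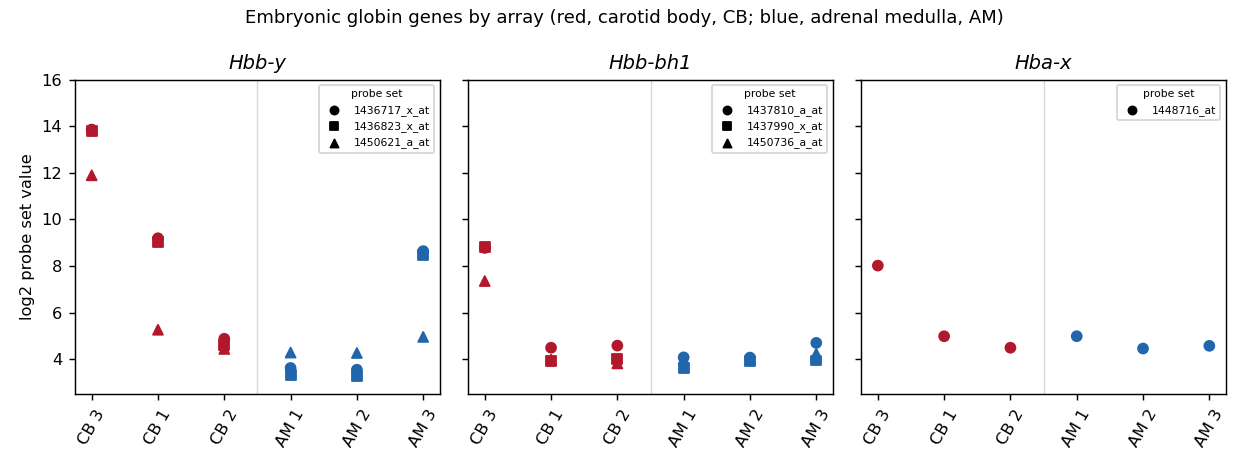
Log2 values of the 7 probe sets of Hbb-y, Hbb-bh1 and Hba-x (vertical axis) on each of the 6 arrays (horizontal axis; red, carotid body; blue, adrenal medulla; 1 symbol shape per probe set). Every probe set is highest on carotid body array 3, at 7.36 to 13.86, and the _x_at sets of Hbb-y are also raised on carotid body array 1 and adrenal medulla array 3.

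The upstream sequences of Hbb-y and Hba-x are shown because these genes, on different chromosomes, were high on the same array, with that of Alas2 beside them as a gene that was not. RefSeq's table of GRCm38.p6 gave promoters for 4 of the 7 genes. Each line holds the 250 bases before the gene's start, 5′ to 3′ along the gene's strand: chr7:103853208-103853457 on the minus strand for Hbb-y, chr11:32276350-32276599 on the plus strand for Hba-x and chrX:150547167-150547416 on the plus strand for Alas2. Capitals mark matches, on either strand, to ATAAA (a form of the TATA box), to the CCAAT box, to the box written CACCC, and to the core of GATA factor sites, GATAA.
Hbb-y: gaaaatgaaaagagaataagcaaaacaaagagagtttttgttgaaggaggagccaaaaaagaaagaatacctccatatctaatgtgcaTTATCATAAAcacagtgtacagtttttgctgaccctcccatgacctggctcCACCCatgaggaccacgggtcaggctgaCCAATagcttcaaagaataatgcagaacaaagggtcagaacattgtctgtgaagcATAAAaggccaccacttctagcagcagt
Hba-x: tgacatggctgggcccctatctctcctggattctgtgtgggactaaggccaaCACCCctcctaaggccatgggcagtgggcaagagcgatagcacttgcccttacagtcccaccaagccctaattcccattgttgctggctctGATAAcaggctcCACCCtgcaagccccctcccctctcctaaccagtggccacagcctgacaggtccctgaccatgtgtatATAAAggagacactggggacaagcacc
Alas2: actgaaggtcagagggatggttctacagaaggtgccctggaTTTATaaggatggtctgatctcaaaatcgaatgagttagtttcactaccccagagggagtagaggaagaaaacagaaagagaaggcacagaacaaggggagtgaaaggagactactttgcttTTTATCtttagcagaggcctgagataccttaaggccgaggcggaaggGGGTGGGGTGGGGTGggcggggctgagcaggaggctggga
Hbb-y held ATAAA beginning 28 bases before the start, CCAAT at 83 and CACCC at 111. It also held GATAA on the opposite strand at 162, directly followed by ATAAA at 157. Hba-x held ATAAA at 27 bases, CACCC at 95 and 198, and GATAA at 107, with no CCAAT in these letters. Alas2 held CACCC on the opposite strand at 30, 35 and 40 bases, GATAA at 86 overlapping ATAAA at 87, and another ATAAA at 209, all on the opposite strand. In Epb42, ATAAA at 126 and GATAA at 226, both on the opposite strand, were the only matches. These motifs are common: of 32851 windows of the same length in the table, 37.3% held ATAAA, 33.8% CCAAT, 52.0% CACCC and 22.6% GATAA on either strand. A match is a run of letters and not a shown binding site.

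Most probe sets of the other members, of which Hbb-b2 alone is an adult globin gene, did not share the rise on carotid body array 3. Of 8 probe sets of Hbb-b2, Alas2, Slc4a1 and Epb42, 1 was at least 2-fold higher there than on both other arrays, and the median difference was -0.19. Hbb-b2 is annotated as an adult beta chain; C57BL/6 mice carry the Hbb-bs and Hbb-bt forms of the adult beta genes, so which of these closely similar RNAs its probe sets measure is not settled by the annotation. Its set 1427865_at was 7.39 in carotid body array 3, against 7.25 and 7.51 in arrays 1 and 2, and 6.56, 6.77 and 6.44 in adrenal medulla arrays 1, 2 and 3. Set 1427866_x_at was 5.79 in carotid body array 3, against 6.34 and 5.70 in arrays 1 and 2, and 4.71, 4.62 and 4.45 in adrenal medulla. In both sets the carotid body arrays lay together, above every adrenal medulla array.

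Alas2 encodes the erythroid form of the first and rate-limiting enzyme of haem synthesis. Its probe set 1451675_a_at was 6.01 in carotid body array 3, against 6.24 and 6.71 in arrays 1 and 2, and 4.90, 5.73 and 5.51 in adrenal medulla. The tissues did not overlap, and array 3 was the lowest of carotid body. Slc4a1 encodes band 3, the chloride and bicarbonate exchanger that anchors the red cell skeleton, and its 3 probe sets disagreed. Set 1434502_x_at was 6.44 in carotid body array 3, against 4.00 and 3.75 in arrays 1 and 2, and 3.62, 3.76 and 3.61 in adrenal medulla. Set 1416464_at was 4.41 in carotid body array 3, against 4.81 and 4.56 in arrays 1 and 2, and 4.42, 4.43 and 4.30 in adrenal medulla. Set 1431743_a_at was 3.74 in carotid body array 3, against 3.79 and 4.01 in arrays 1 and 2, and 3.80, 3.69 and 4.00 in adrenal medulla. A rise of 2.56 on carotid body array 3 was thus seen by 1 set of Slc4a1, while the others differed by -0.28 and -0.15.

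Epb42, protein 4.2, binds band 3 to the red cell skeleton. Its set 1417338_at was 4.18 in carotid body array 3, against 4.20 and 4.40 in arrays 1 and 2, and 3.88, 4.02 and 4.08 in adrenal medulla. Set 1417337_at was 3.27 in carotid body array 3, against 3.36 and 3.71 in arrays 1 and 2, and 3.29, 3.14 and 3.28 in adrenal medulla. Both lay near the lower quartile on every array. Closest to the 2-fold limit on carotid body array 3 were 1434502_x_at of Slc4a1, 2.43 above the higher of the other arrays, and outside it 1427865_at of Hbb-b2, 0.12 below.

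**Figure D2:**
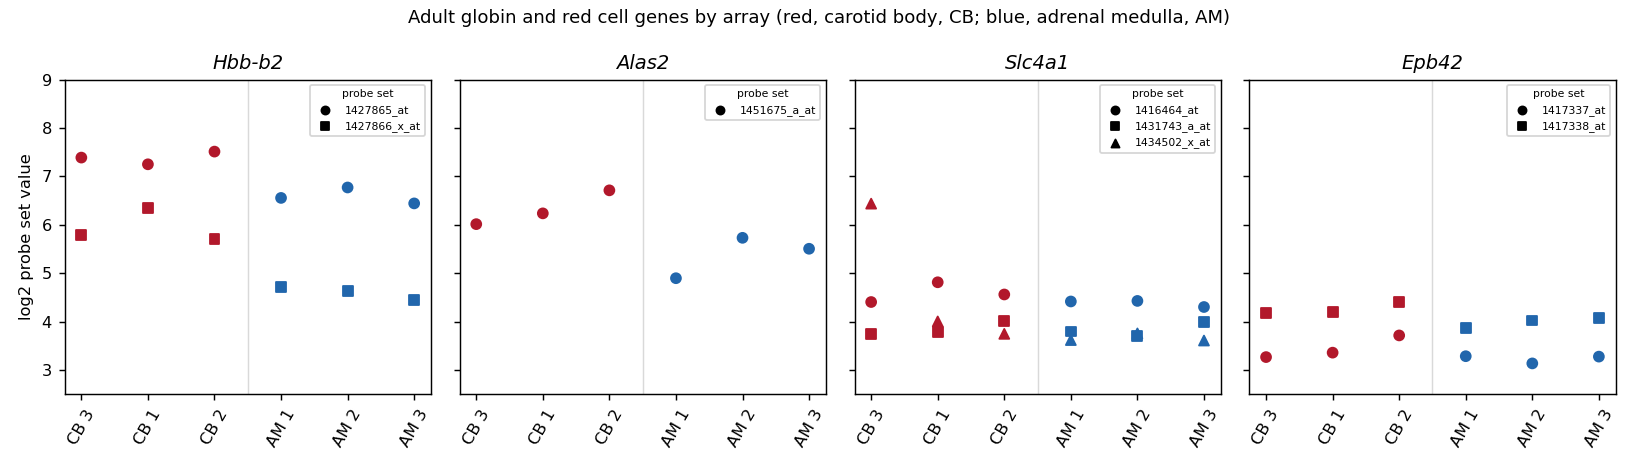
Log2 values of the 8 probe sets of Hbb-b2, Alas2, Slc4a1 and Epb42 (vertical axis) on each of the 6 arrays (horizontal axis; red, carotid body; blue, adrenal medulla; 1 symbol shape per probe set). Hbb-b2 and Alas2 are higher on every carotid body array than on any adrenal medulla array, and 1 probe set of Slc4a1 is raised to 6.44 on carotid body array 3.

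Between the tissues, the adult beta globin gene was higher in carotid body, while the embryonic genes were not called without the cohort as a block. The fit was limma's over all 45037 probe sets with Benjamini-Hochberg adjustment, and a call needed an adjusted p under 0.05 and 2-fold. Of the 15 member probe sets, 1 was called higher in carotid body and 0 lower, against 5.95% and 4.58% of all probe sets, so the members' share is near the background. At an adjusted p under 0.05 with any fold, 3 were higher and 0 lower, against 11.5% higher in all. The called set, 1427866_x_at of Hbb-b2, averaged 5.94 ± 0.35 in carotid body, against 4.60 ± 0.13 in adrenal medulla (SD, n = 3 each), a difference of 1.35 ± 0.19 (SE; limma adjusted p = 0.00214), or 2.55-fold. The other set of Hbb-b2 averaged 7.39 ± 0.13 in carotid body, against 6.59 ± 0.17 in adrenal medulla, a difference of 0.79 ± 0.13 (SE; limma adjusted p = 0.00509), under 2-fold.

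Alas2 averaged 6.32 ± 0.36 in carotid body, against 5.38 ± 0.43 in adrenal medulla (SD, n = 3 each), a difference of 0.94 ± 0.26 (SE; limma adjusted p = 0.0330), also under 2-fold. Its adjusted p was 0.0605 and 0.104 without carotid body arrays 1 and 2, 0.0783 and 0.0761 without adrenal medulla arrays 1 and 3, while its difference was past 2-fold with carotid body array 3 (1.10) or adrenal medulla array 2 (1.12) left out. Alas2 is X-linked, and the part of the Xist difference (4.85) in that of Alas2 was not tested. Set 1417338_at of Epb42 had no overlap between tissues either, with a difference of 0.26 ± 0.12 (SE; limma adjusted p = 0.165). Groups without overlap, with carotid body on top, were found for 4 of the 15 member probe sets and for 19.8% of all probe sets.

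For Hbb-y, 1436717_x_at averaged 9.31 ± 4.49 in carotid body, against 5.27 ± 2.92 in adrenal medulla (SD, n = 3 each), a difference of 4.04 ± 2.25 (SE; limma adjusted p = 0.253). Within cohorts 1, 2 and 3 its differences were 5.57, 1.33 and 5.22, all toward carotid body. With the cohort as a block this set and 1436823_x_at were called (limma adjusted p = 0.0153 and 0.0155). The members called then numbered 3, against 6.08% of all probe sets. Both fits hold the values of carotid body array 3 on which the genes were picked, so these p-values are no independent evidence. The third set, 1450621_a_at, differed by 2.70 ± 1.73 (SE; limma adjusted p = 0.322, and 0.178 with the block), and by 0.98, 0.17 and 6.94 within cohorts 1, 2 and 3. Hbb-bh1 and Hba-x were not called with or without the block. Without carotid body array 3, the differences of the embryonic globin sets were 1.76 and 1.79 for the _x_at sets of Hbb-y and between -0.18 and 0.35 for the other 5. The tissue differences of Hbb-bh1 and Hba-x therefore rest on carotid body array 3.

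**Figure D3:**
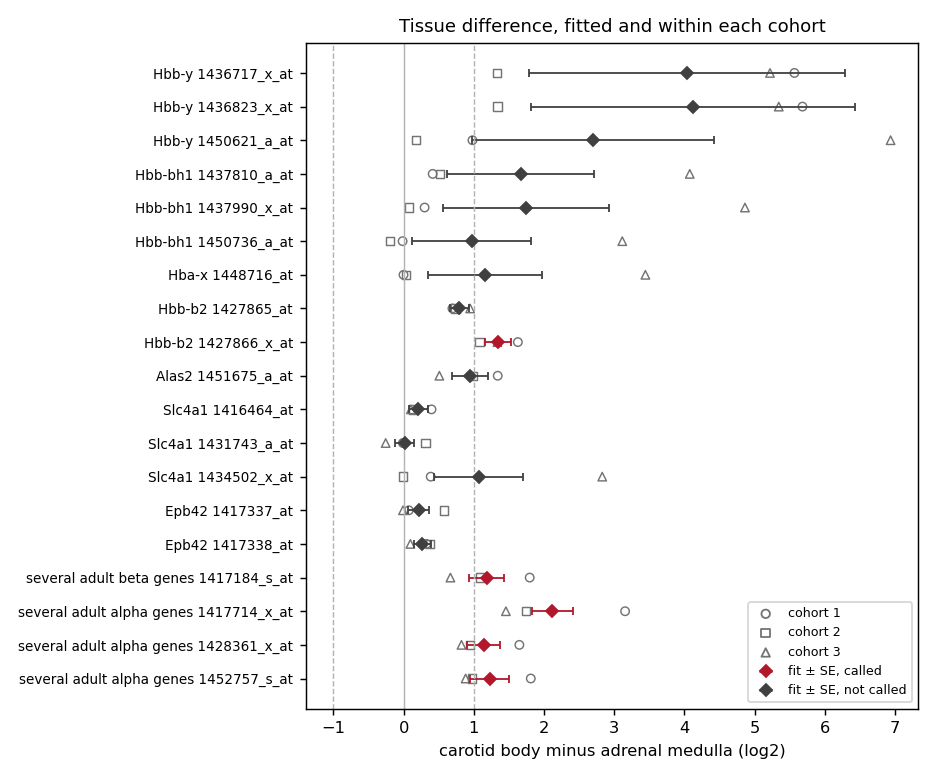
Carotid body minus adrenal medulla (horizontal axis, log2) for the 15 member probe sets and 4 probe sets annotated to several adult globin genes at once (rows). Diamonds with bars are the limma estimate ± SE (red, called), open symbols the difference within each cohort, and dashed lines 2-fold; the adult globin sets lie above 0 in every cohort, while Hbb-bh1 and Hba-x exceed 3 in cohort 3 alone.

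Adult globin RNA as a whole was read from 4 probe sets annotated to several adult globin genes at once, 3 to adult alpha genes and 1 to adult beta genes, which carry no single gene name. The beta set, 1417184_s_at, was 13.16 in carotid body array 3, against 13.80 and 13.84 in arrays 1 and 2, and 12.00, 12.75 and 12.49 in adrenal medulla arrays 1, 2 and 3. The alpha set 1452757_s_at was 13.46 in carotid body array 3, against 13.68 and 13.94 in arrays 1 and 2, and 11.87, 12.96 and 12.58 in adrenal medulla. In all 4 sets carotid body array 3 was lower than both other carotid body arrays, with differences of -0.67 to -0.20 from their mean, on the array where Hbb-y was highest. All 4 were called higher in carotid body, with differences of 1.14 to 2.12 (limma adjusted p = 0.0022 to 0.0157) and no overlap between tissues. Over all probe sets, 5.95% were called higher and 19.8% had no overlap with carotid body on top. The 3 alpha sets are annotated to the same genes, so the 4 are not independent. Without adrenal medulla array 1, 3 of the differences were 0.86 to 0.98, under 2-fold, and without carotid body array 2, 2 of the sets had an adjusted p of 0.0507 and 0.0623. Among the genes of the list of other globins, Hba-a1 and Hba-a2 had probe sets of their own name, both between 3.87 and 4.54 on all 6 arrays.

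No gene in lists of other red cell genes rose on carotid body array 3 as far as the embryonic globins did. Of 60 measured genes in 6 lists (other globins, haem synthesis, iron and haem transport, membrane and skeleton, red cell enzymes, erythroid transcription factors), 0 were at least 2-fold higher there than on both other arrays and 0 lower, against 0.682% higher and 0.231% lower of all 18193 genes. At such shares a count of 0 among 60 genes says little. The median difference of the 60 genes was -0.05, beside 0.05 over all genes, and the range was -0.60 to 1.06. Gata1 and Klf1, the transcription factors that switch on erythroid genes, were 4.87 and 5.08 in carotid body array 3, against 5.08 and 5.10 in array 1 and 4.76 and 4.64 in array 2. The red cell surface genes Rhag and Kel were 3.06 and 3.85 in carotid body array 3, against 3.35 and 4.18 in array 1 and 3.47 and 3.95 in array 2. Gata1, Klf1, Rhag and Kel all lay below the carotid body arrays' medians of 5.25 to 5.32. Rhag and Kel were near or below the lower quartile, where a level cannot be told from no RNA. The highest differences were those of the haem-related transporter gene Abcb10, at 1.06, and of the transferrin receptor gene Tfrc, at 1.05, both under 2-fold against array 2.

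Between tissues these 60 genes went both ways, 7 higher in carotid body and 8 lower, against 5.91% and 6.08% of all genes, with a median of -0.10 beside -0.04 over all genes. Higher were the water channel gene Aqp1 (4.32), the glycophorin C gene Gypc (2.09), the carbonic anhydrase gene Car2 (2.64), the iron importer gene Slc11a2 (1.07), and the transcription regulator genes Tal1 (1.12), Lmo2 (1.55) and Sox6 (1.34). Lower in carotid body were Alas1, the housekeeping form of the enzyme that Alas2 encodes, the haem synthesis enzyme genes Alad (-1.82) and Ppox (-1.21), Tfrc (-1.16), the mitochondrial iron importer gene Slc25a37 (-1.20), the adhesion gene Icam4 (-1.19), the RNA-binding protein gene Cpeb4 (-1.15) and Zfpm1 (-1.21), the partner of GATA factors. Alas1 averaged 8.42 ± 0.57 in carotid body, against 11.65 ± 0.63 in adrenal medulla (SD, n = 3 each), a difference of -3.23 ± 0.37 (SE; limma adjusted p = 0.00099), opposite in direction to Alas2. Genes of the adrenal cortex, where Alas1 also serves steroid-producing enzymes, moved with it: all 5 cortex genes (Star, Cyp11b1, Cyp11a1, Cyp11b2, Mc2r) were called lower in carotid body, and their summed level (log2) was 6.56 in carotid body array 3, against 12.95 and 6.51 in arrays 1 and 2, and 14.93 to 15.37 in adrenal medulla, with the part of cortex RNA in the Alas1 difference not tested. Among 9 genes of haemoglobin and haem clearance, the macrophage haemoglobin receptor gene Cd163 was higher in carotid body (2.72, limma adjusted p = 0.000365), and the haem oxygenase gene Hmox1 (-3.79) and the iron exporter gene Slc40a1 (-1.47) were lower. Of globins outside red cells, the cytoglobin gene Cygb was higher in carotid body (1.20) and the neuroglobin gene Ngb lower (-1.86). In the clearance list Hp, which encodes haptoglobin, was 7.28 in carotid body array 3, against 8.85 and 8.33 in arrays 1 and 2, and 7.59, 7.24 and 6.37 in adrenal medulla. Between tissues Hp was not called (1.09 ± 0.44, SE; limma adjusted p = 0.120), but with the cohort as a block it was (limma adjusted p = 0.00286), with differences of 1.26, 1.09 and 0.91 within cohorts 1, 2 and 3.

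Genes of cell division were high on carotid body array 3 with the embryonic globins. All 5 measured genes of that list were at least 2-fold higher there than on both other arrays, with a median difference of 2.41. Over all genes the share was 0.682%, but the list was chosen with earlier results of these data known. Mki67, a marker of cycling cells, was 8.51 in carotid body array 3, against 5.71 and 5.70 in arrays 1 and 2, and 5.22, 5.43 and 6.36 in adrenal medulla arrays 1, 2 and 3. Top2a, the topoisomerase that untangles replicated DNA, was 7.53 in carotid body array 3, against 5.41 and 5.68 in arrays 1 and 2, and 5.37, 5.45 and 6.65 in adrenal medulla. Ccna2, Cdk1 and Birc5, which drive entry into and passage through mitosis, stood at 8.20, 6.79 and 7.23 in carotid body array 3, with 4.21 to 5.95 in the other carotid body arrays and 4.11 to 6.44 in adrenal medulla. The summed level of the list (log2) was 10.11 in carotid body array 3, against 7.58 and 7.80 in arrays 1 and 2, and 7.37, 7.62 and 8.40 in adrenal medulla. At least 2-fold higher in adrenal medulla array 3 than in both other adrenal medulla arrays was 1 of the 5, Top2a, against 0.055% of all genes. Adrenal medulla array 3 was the highest of its tissue, as it was for Hbb-y, and the part of cycling cells in the globin levels was not tested. The 5 genes were not called between tissues.

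Blood cell and fetal markers gave no such shift as lists. On carotid body array 3, 0 of 9 neutrophil, 0 of 6 lymphocyte and leukocyte, 0 of 9 platelet, 0 of 6 macrophage and 0 of 5 endothelial genes were 2-fold above both other carotid body arrays. Over all genes the share was 0.682%, so counts of 0 in lists this short say little about these cells. The summed neutrophil level was 7.38 in carotid body array 3, against 7.78 and 7.56 in arrays 1 and 2, and 7.61 to 7.72 in adrenal medulla. Elane and Mpo of that list were at 3.59 to 4.17 on every array, near the lower quartile, and do not stand for the list. Brightest in these lists were Camp and Prtn3 among neutrophil genes and Ptprc, the pan-leukocyte CD45 gene, and Plac8 among leukocyte genes; Ptprc was 8.83 in carotid body array 3, against 8.99 and 8.65 in arrays 1 and 2, and 8.22 to 8.51 in adrenal medulla. Between tissues the platelet chemokine gene Pf4 (2.44), the macrophage receptor genes Csf1r (1.48) and Mrc1 (1.66) and the endothelial junction genes Cdh5 (1.28) and Cldn5 (3.97) were called higher in carotid body, the side on which adult globin RNA was higher; their part in that difference was not tested. Of 6 genes of fetal liver and yolk sac, 0 passed 2-fold against both arrays. Afp, the fetal serum protein alpha-fetoprotein, was 7.40 in carotid body array 3, against 7.01 and 3.87 in arrays 1 and 2, and was 3.32, 3.15 and 3.36 in adrenal medulla arrays 1, 2 and 3. Afp was thus raised on the same carotid body arrays as 1436717_x_at of Hbb-y, though not on adrenal medulla array 3, and its 5 probe sets disagreed, with differences between carotid body array 3 and the others of 0.06 to 1.96. Between tissues it was called (2.82 ± 0.82, SE; limma adjusted p = 0.0430), and leaving out carotid body array 1 or 3, or any 1 adrenal medulla array, gave an adjusted p of 0.0839 to 0.129. Alb, which defines liver, was 3.97 to 4.67 on all arrays.

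**Figure D4:**
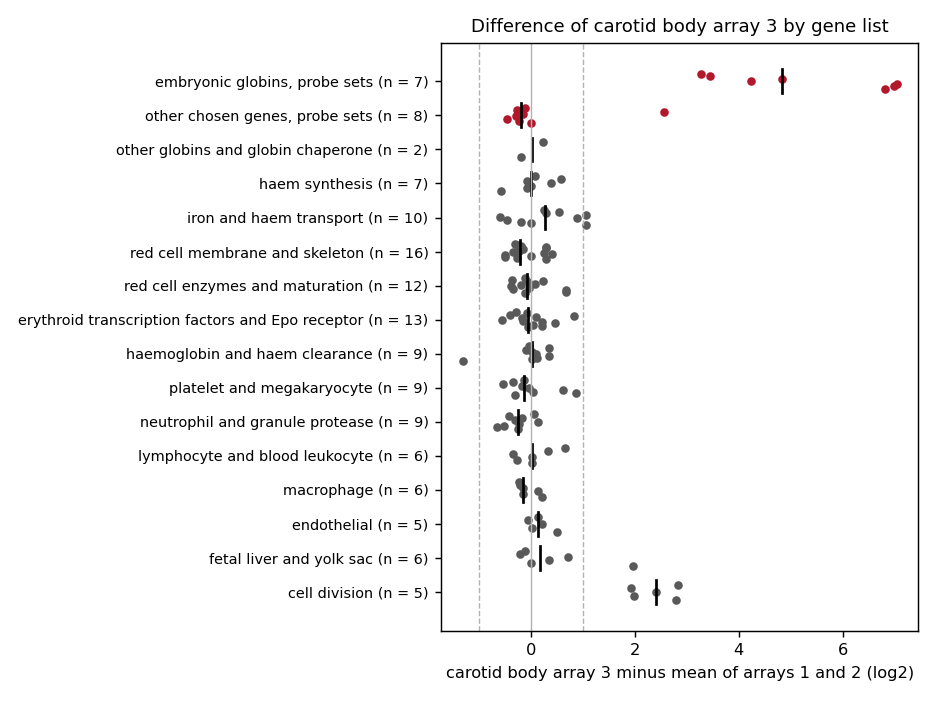
Carotid body array 3 minus the mean of carotid body arrays 1 and 2 (horizontal axis, log2) for the probe sets of the chosen genes (red) and the genes of 14 lists (grey, 1 point per gene, its brightest probe set). Vertical ticks are medians and dashed lines 2-fold; the embryonic globin sets lie at 3.28 to 7.04, the cell division genes at 1.92 to 2.82, and the red cell lists around 0.

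Genes were then ranked by how like their profiles were to the embryonic globins. Likeness was Pearson's r over the 6 arrays to the mean of the brightest probe sets of Hbb-y, Hbb-bh1 and Hba-x, among 1727 genes with a range of at least 2 on the log2 scale, given as a description with no p. The 10 closest were Cks2, Cenpa, Vip, Cep55, Cdca5, Tac1, Cdc20, Mki67, Ect2 and Colec10, with r of 0.963 to 0.990, and 39 genes had an r over 0.9. Cks2, a cofactor of cyclin-dependent kinases, was 9.57 in carotid body array 3, against 7.31 and 6.56 in arrays 1 and 2, and 6.64, 6.61 and 7.33 in adrenal medulla arrays 1, 2 and 3. Vip, a neuropeptide of nerve fibres, was 9.76 in carotid body array 3, against 7.14 and 6.37 in arrays 1 and 2, and 6.50, 6.64 and 7.001 in adrenal medulla. In each of the 10 genes carotid body array 3 was highest and carotid body array 1 was above array 2. Adrenal medulla array 3 was above both other adrenal medulla arrays in each. This is the shape of the mean they were ranked by, so it follows from the choice. In that mean, the heights on carotid body array 1 and adrenal medulla array 3 came mainly from Hbb-y (9.19 and 8.64). Hbb-bh1 was 4.49 and 4.70 there, and Hba-x 4.99 and 4.58. The 6 arrays are few points, and carotid body array 3 weighs most in each r.

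**Figure D5:**
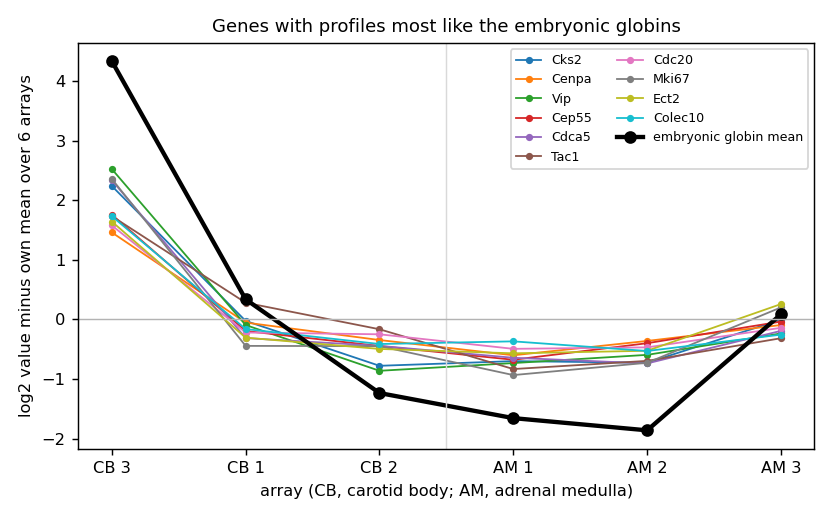
Log2 value minus the gene's own mean over 6 arrays (vertical axis) on each array (horizontal axis) for the mean of Hbb-y, Hbb-bh1 and Hba-x (black) and the 10 genes with the highest Pearson r to it (colours). Lines join the values of 1 gene and imply no order of arrays. All have their peak on carotid body array 3 and a smaller rise on adrenal medulla array 3, the shape they were chosen by.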

How the data were processed

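The deposited table gives 1 log2 value per probe set for 3 carotid body and 3 adrenal medulla arrays; the submitters' processing notes name Affymetrix Expression Console, and the version, algorithm and normalization behind the deposited log2 values are unknown here. The log2 scale was inferred from a range of 2.70 to 14.97. Per the labels, RNA was labelled from its 3' end. Of 45101 probe sets, 64 controls were left out. Names came from the platform annotation: 34945 probe sets had 1 symbol, 932 several and 9160 none; 34741 of the first were found in RefSeq's GRCm38.p6 table, which changed 0 symbols. A gene outside the members was represented by its brightest probe set.

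Tissues were compared with limma 3.58.1 in R 4.3.3 (lmFit, eBayes, no block), two-sided, Benjamini-Hochberg over 45037 probe sets, tested on simulated data. Replicates are pools from 3 cohorts; the series' statement on cohorts is the basis for pairing them, and deviations from the tissue means correlated at 0.22, 0.08 and 0.16 in same-numbered arrays and at -0.21 to 0.10 in others. Carotid body array 3 was set against arrays 1 and 2 without a test. Genes named are all members, list genes that passed a call or were 2-fold apart on array 3, the 10 most like, and any others after their values were seen. Gata1, Klf1, Rhag, Kel, Abcb10, Elane, Mpo, Alb and Xist are in the last class. The members and lists were chosen with earlier results of these data known. Alternatives were the block, 2 normalizations, a filter at the 25th percentile, a variance trend, array weights, and leaving out arrays and cohorts.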

Additional observations from a re-analysis of the deposited data

How the results depend on the processing

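The 8 member probe sets at least 2-fold higher on carotid body array 3 stayed 8 under quantile normalization, median centring, removal of dim probe sets, either array alone as the base, and limits of 1.5-fold and 4-fold. Dim removal dropped 2 of 15 member probe sets, 1 each of Slc4a1 and Epb42. Between tissues, 3 member probe sets were called higher in carotid body with the cohort as a replicate block in place of 1, and leaving out single arrays gave 1 to 2, Alas2 joining when either carotid body array 3 or array 2 of adrenal medulla was dropped; 0 were lower in any setting run. In the list genes, alternatives chosen after seeing the data, the 60 red cell genes called lower numbered 4 to 9 (8 with all arrays; 4 without cohort 2) and those called higher 5 to 7 when arrays or cohorts were left out, and the block left those counts at 8 and 7. Median centring gave 10 lower and 6 higher among the 60. With the block, Hp of the haem clearance list was also called. None of these genes was 2-fold higher on carotid body array 3, and 3 were against array 1 alone or at 1.5-fold; of the 5 cell division genes, 3 passed 4-fold. Of 223 single tissue differences recomputed, 8 changed sign, none of them called: 1450736_a_at of Hbb-bh1 was -0.18 without carotid body array 3 and -0.10 without cohort 3, within a leave-out range of -0.18 to 1.58, and 1431743_a_at of Slc4a1 was -0.055 after quantile normalization, -0.10 after median centring, -0.07 without carotid body array 2, -0.0021 and -0.05 without adrenal medulla arrays 1 and 2, and -0.13 without cohort 2, within a range of -0.13 to 0.15. The cause was not tested. With 3 arrays a tissue and no detection calls, differences near the lower quartile cannot be resolved.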

Other observations

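A few more genes, picked with their values in view and not tested as a group, are given by their values on carotid body array 3. Hmga2, a chromatin protein gene active in embryonic growth, ranked behind Hbb-y alone among all genes for the difference of array 3 from the other carotid body arrays. Its set 1450780_s_at was 9.52 in carotid body array 3, against 5.09 and 5.13 in arrays 1 and 2, and 5.23, 4.98 and 5.19 in adrenal medulla arrays 1, 2 and 3. Sets 1422851_at and 1450781_at rose likewise, by 5.63 and 4.31 over the mean of the other carotid body arrays. Set 1446196_at did not pass 2-fold, at 4.04 in carotid body array 3, against 3.71 and 3.33 in arrays 1 and 2. Sox11, a transcription factor gene of developing neurons, was 7.92 in carotid body array 3, against 5.35 and 4.80 in arrays 1 and 2, and 4.86, 4.99 and 4.95 in adrenal medulla. The RNA-binding protein gene Igf2bp3 had probe sets that disagreed: 1433732_x_at was 8.33 in carotid body array 3, against 4.81 and 4.67 in arrays 1 and 2, and 1433731_at was 7.21, against 7.13 and 7.42. The epithelial keratin gene Krt8 was 7.86 in carotid body array 3, against 4.96 and 4.48 in arrays 1 and 2, and 4.83, 4.999 and 5.50 in adrenal medulla.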
